A study of Mus musculus with 6 samples.

Results

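The nuclear genes for the subunits of the respiratory chain and of ATP synthase were compared between hippocampi of wild-type and ORAI1-overexpressing mice. Members were the protein-coding genes whose symbol begins with Nduf followed by a, b, c, s or v, with Uqcr, with Cox4 to Cox8 or with Atp5, and the genes Sdha to Sdhd, without the Ndufaf and Sdhaf assembly factors. The rule chose 86 of the 54838 genes in the table, of which 38 belong to complex I, 4 to complex II, 8 to complex III, 18 to complex IV and 18 to complex V. It used symbols and no measured value. The hippocampi came from 3 wild-type and 3 transgenic females, all aged 7 months, and each mouse gave 1 RNA library. The transgenic line is named FVB/NJ-Tg(ORAI1)Ibd. The transgenic mice carry the coding sequence of human ORAI1, a calcium channel subunit of the plasma membrane, in the Thy-1.2 cassette, which is used to drive expression in neurons, and all come from 1 transgenic line. Whole hippocampi were used, so fewer cells of a type and less RNA per cell cannot be told apart.

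The respiratory chain moves electrons from NADH (complex I) and succinate (complex II) through ubiquinone to complex III, then over cytochrome c to complex IV, which reduces oxygen. Complexes I, III and IV pump protons across the inner mitochondrial membrane, and ATP synthase (complex V) uses the resulting gradient to make ATP. The catalytic subunits are encoded partly in the mitochondrial genome, whereas the accessory subunits, and all of complex II, come from the nucleus. In the brain most ATP is made in this way, and much of it serves ion pumps that restore gradients after electrical activity and calcium entry.

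Library totals ran from 37414241 to 52497799 counted fragments. Mouse Orai1, the row in which the transgene was seen, had 302 to 376 counts in the wild-type and 11834 to 14620 in the transgenic libraries (log2 fold change 5.42), which matches the labels. The 37 genes of the mitochondrial chromosome were listed at 0 in all 6 libraries, so the mitochondrially encoded subunits of complexes I, III, IV and V were not analysed here. The table names this chromosome chrMT, why its genes have no counts was not tested, and the library totals hold no counts of mitochondrial genes. The 18 genes that mark choroid plexus epithelium were all down-regulated (median log2 fold change −2.75), with a summed level of 3955 to 6117 CPM (counts relative to the scaled library total) in the wild-type and 564 to 879 CPM in the transgenic mice. Defining markers of neurons were present in every library, at summed levels of 6159, 6105 and 6034 CPM in the wild-type and 6435, 6227 and 6175 CPM in the transgenic mice, without overlap. The median log2 fold change of these 7 markers was −0.020. The glutamatergic marker Slc17a7 was called higher (0.26) and the GABAergic marker Gad2 lower (−0.52) among them. Of 3 endothelial markers 1 was called higher, and none of the markers of astrocytes, oligodendrocytes, microglia, ependyma or muscle and heart was called. Their part in the results on the subunit genes was not tested.

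The windows upstream of 4 subunit genes of these results are printed here because they differ in the motifs that are known from promoters of respiratory genes. Each holds the 250 bases before the RefSeq transcription start, on the GRCm38.p6 build and the minus strand, with matches in capitals. Cox7a2l and Atp5e are among the 3 subunit genes that were called, Cox6a1 is a strongly expressed subunit of complex IV, and Cox8b is a tissue-restricted one. The RefSeq start of Cox7a2l lies inside the GENCODE gene, which reaches further upstream. No window of Cox4i1, the remaining called gene, was printed.
Cox7a2l, chr17:83514334-83514583: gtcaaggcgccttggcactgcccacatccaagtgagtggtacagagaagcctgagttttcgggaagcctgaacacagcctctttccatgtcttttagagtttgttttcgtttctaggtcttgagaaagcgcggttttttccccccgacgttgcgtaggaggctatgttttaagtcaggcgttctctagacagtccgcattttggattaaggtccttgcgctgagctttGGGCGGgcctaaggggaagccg
Atp5e, chr2:174464102-174464351: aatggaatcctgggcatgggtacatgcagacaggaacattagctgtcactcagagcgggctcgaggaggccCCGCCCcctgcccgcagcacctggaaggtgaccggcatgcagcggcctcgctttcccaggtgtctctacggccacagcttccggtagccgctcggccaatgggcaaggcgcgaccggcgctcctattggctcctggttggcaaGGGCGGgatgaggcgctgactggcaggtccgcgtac
Cox6a1, chr5:115348959-115349208: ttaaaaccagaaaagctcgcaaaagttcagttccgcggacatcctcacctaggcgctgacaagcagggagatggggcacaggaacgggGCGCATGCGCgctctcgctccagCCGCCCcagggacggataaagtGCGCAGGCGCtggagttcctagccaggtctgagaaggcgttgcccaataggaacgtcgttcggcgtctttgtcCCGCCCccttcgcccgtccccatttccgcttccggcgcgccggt
Cox8b, chr7:140900447-140900696: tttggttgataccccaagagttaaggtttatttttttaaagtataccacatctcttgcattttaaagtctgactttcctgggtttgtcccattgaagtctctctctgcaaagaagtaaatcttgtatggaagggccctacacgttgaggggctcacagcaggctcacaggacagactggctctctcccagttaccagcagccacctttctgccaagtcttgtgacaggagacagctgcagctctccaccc
The motifs searched on both strands were GCGCA and GCGC with any base between them (NRF1, a regulator of nuclear genes for mitochondrial proteins), CCGGAAGT (the ETS family, with GABP), AAGATGGC (YY1) and GGGCGG (SP1, a GC box), and TATAAA was searched on the gene's strand. The Cox6a1 window held 2 NRF1 matches and 2 GC boxes, the Atp5e window 2 GC boxes and the Cox7a2l window 1, whereas the printed bases of Cox8b held none of the 5 motifs. In the 50 bases after the start, which are not printed, Cox8b had a TATAAA match and Cox7a2l a further GC box. Windows of 300 bases, which add 50 bases after the start, were found for 67 of the 85 member symbols, some with several starts, and gave 72 windows. The NRF1 motif was in 18 of these 72 windows (25%) against 4.6% of all 32851 windows in the table. YY1 matches were in 12.5% against 2.75%, ETS matches in 6.94% against 3.89%, GC boxes in 38.9% against 35.7% and TATAAA in 4.17% against 8.32%. The median log2 fold change was 0.108 in the 17 members with an NRF1 match and 0.102 in the 50 without one, and the difference was not tested.

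Of the 86 members 84 had enough counts to be tested. The other 2, the testis-type subunit Cox8c and a read-through gene that carries the symbol Atp5o (ENSMUSG00000116933), had 0 counts in all 6 libraries. Of the read-through gene's 76-base windows 83.5% also occur in transcripts of Donson, the main Atp5o gene or a pseudogene. The point estimate was higher in transgenic hippocampi for 72 of the 84 (85.7%) and lower for 12, whereas 48.3% of the 19087 genes tested were higher. Without transgenic mouse 1 the count of higher members was 60 and with gene length offsets 61, and in the other fits it was 69 to 74. Their median log2 fold change was 0.098, with a median standard error (SE) of 0.055, and the median of all genes was −0.010. Only 3 members were called higher at an adjusted p of 0.05 by the quasi-likelihood test of edgeR (3.57% of the members, against 3.1% of all genes tested), and 0 were called lower (4% of all genes). The called share is thus near the background. At an unadjusted p of 0.05, 27 members were higher and 2 lower, against 13% and 14.8% of all genes tested. In 31 members (36.9%) every transgenic mouse lay above every wild-type mouse, against 16.9% of all genes, and in 4 (4.76%) every transgenic mouse lay below, against 17.9%. Subunit genes are counted in the same 6 libraries and are not independent of each other, so these shares describe the libraries.

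**Figure D1:**
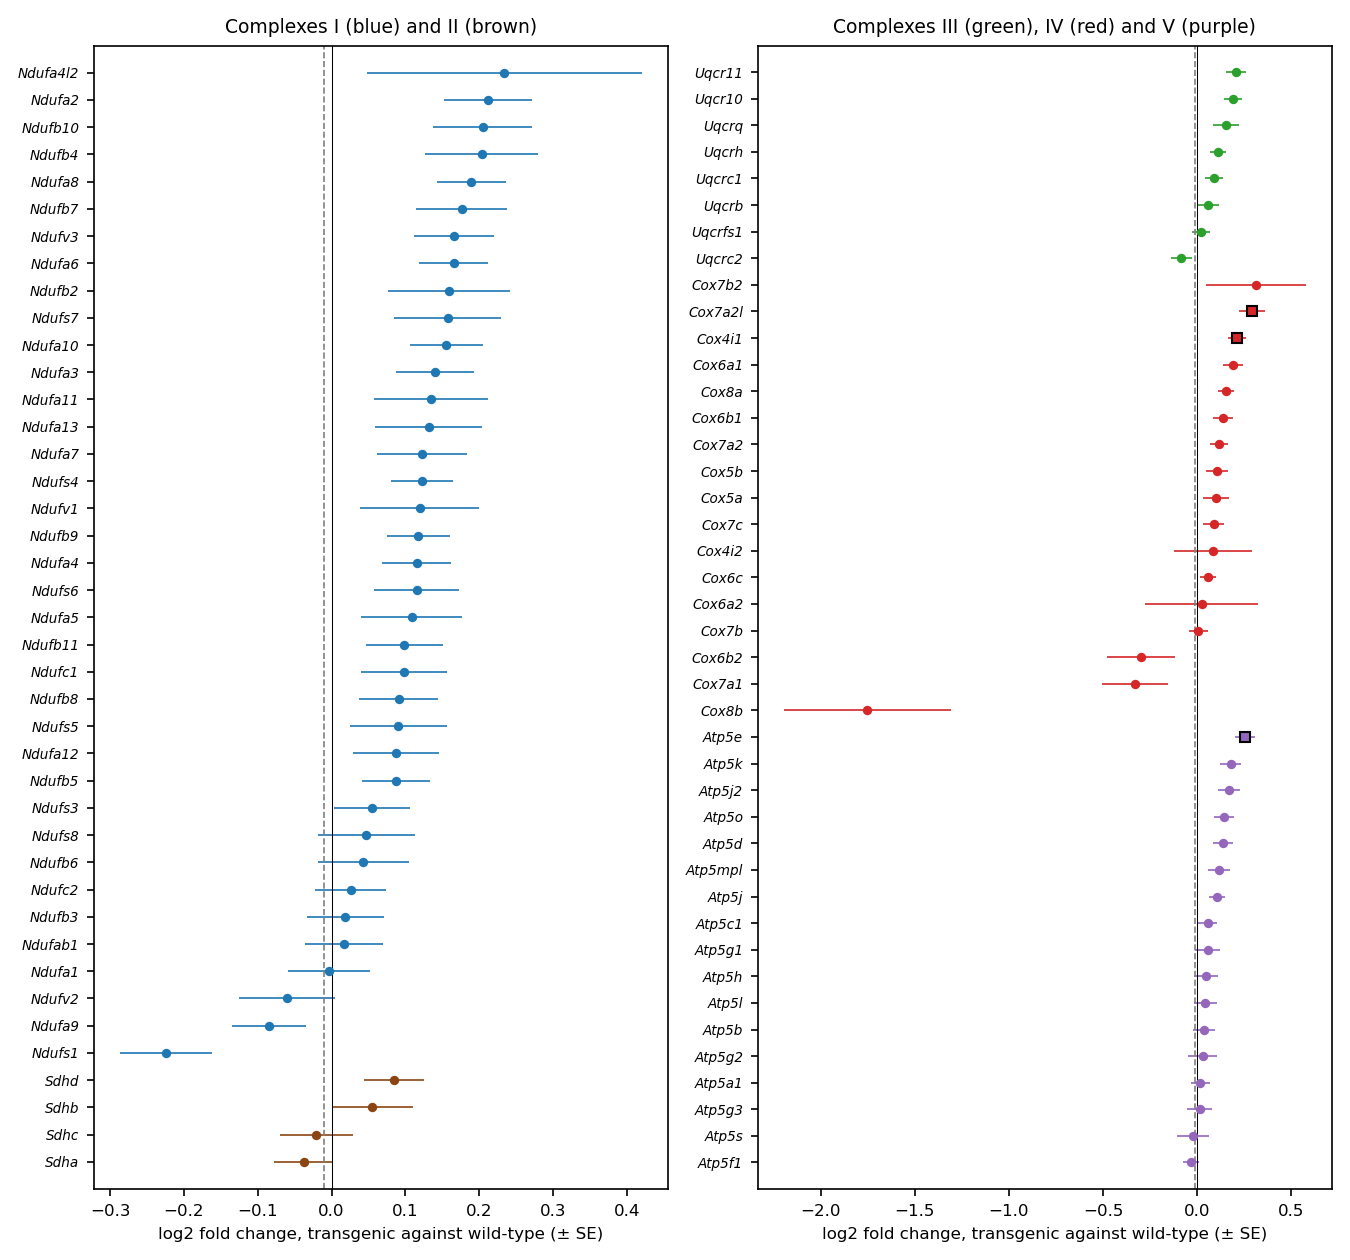
Log2 fold change (transgenic against wild-type) with its SE for the tested subunit genes given individually, by complex, from edgeR. Squares with a black edge mark the 3 called genes, the dashed line the median of all genes (−0.010), and the horizontal axes of the panels differ because Cox8b lies at −1.75.

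The mice did not separate cleanly by the level of the members. Relative to the wild-type mean of each gene, the median position of the members on the log2 CPM scale was −0.018, 0.047 and −0.023 in wild-type mice 1, 2 and 3. In transgenic mice 1, 2 and 3 it was 0.156, 0.058 and 0.046. Transgenic mouse 1 stood well above the rest, and wild-type mouse 2 lay between transgenic mice 2 and 3. Over all genes these positions stayed between −0.027 and 0.002. Transgenic mouse 1 also had the highest sum of neuronal markers (6435 CPM), and the part of this in the members' position was not tested. Without transgenic mouse 1 the median log2 fold change of the members was 0.059, and it reached 0.145 without transgenic mouse 3.

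Members took 0.874%, 0.911% and 0.867% of all counts in the wild-type and 0.966%, 0.915% and 0.906% in the transgenic mice (0.884% ± 0.0235 and 0.929% ± 0.0323, SD, n = 3 each), and the groups overlapped. Complex IV was the 1 complex in which they did not. Its genes took 0.159%, 0.168% and 0.164% of the counts in the wild-type and 0.185%, 0.179% and 0.177% in the transgenic mice. The mean shares of complexes I, III and V were 1.06, 1.05 and 1.03 times the wild-type mean, and that of complex II was 0.994 times.

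**Figure D2:**
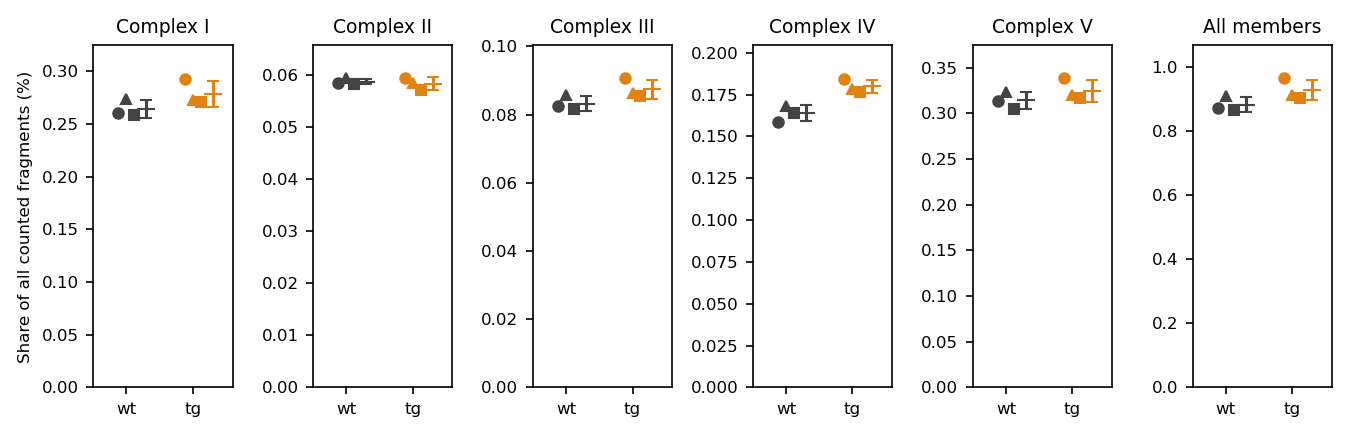
Share of all counted fragments (%) that fell on the genes of each complex, per mouse (circle, triangle and square for mice 1, 2 and 3 of each group), with the group mean and SD. Each axis starts at 0, and complex IV alone shows no overlap, with 0.159% to 0.168% in the wild-type (wt, grey) and 0.177% to 0.185% in the transgenic mice (tg, orange).

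Complex I (NADH:ubiquinone oxidoreductase) had 34 members higher and 4 lower in point estimate. Their median log2 fold change was 0.115, and 0 of its 38 genes were called. Its peripheral arm oxidises NADH in the N module and passes electrons through iron-sulfur clusters to ubiquinone in the Q module, and its membrane arm pumps protons. The medians were 0.121 in the 10 genes of the N module, 0.051 in the 6 of the Q module, 0.132 in the 9 of the proximal and 0.098 in the 11 of the distal membrane arm. All 11 distal genes were higher in point estimate, and none of them was called. The 7 nuclear core subunits, which carry the flavin and the iron-sulfur clusters or line the quinone site, had a median of 0.047, with 5 higher and 2 lower. The other 31 subunits had a median of 0.117, with 29 higher.

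Ndufa8, a subunit of the proximal membrane arm with cysteines for disulfide bonds, had the smallest adjusted p of the complex. It measured 74.6, 77.1 and 78.1 CPM in the wild-type and 91.6, 85.3 and 85.1 CPM in the transgenic mice. The groups did not overlap, and the difference missed the threshold (log2 fold change 0.19, SE 0.047, adjusted p = 0.0548 with edgeR). With gene length offsets it was 0.11. Ndufs1, the largest core subunit, which holds iron-sulfur clusters of the N module, went the other way. Its levels were 145, 147 and 132 CPM in the wild-type and 129, 117 and 117 CPM in the transgenic mice. All 3 transgenic mice lay below the wild-type range, and the test did not pass (log2 fold change −0.22, SE 0.062, adjusted p = 0.0682 with edgeR). Without transgenic mouse 1 it passed (−0.27, adjusted p = 0.0433 with edgeR), and with GC offsets its value was −0.13.

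The other core subunits given here differed by less than Ndufs1. Ndufv1 (0.12), which binds NADH and flavin, Ndufs7 (0.16), Ndufs3 (0.055) and Ndufs8 (0.047) were higher in point estimate and Ndufv2 was lower (−0.060). Without transgenic mouse 1 the values were 0.049 for Ndufv1 and 0.075 for Ndufs7, without wild-type mouse 3 they were 0.058 for Ndufv1 and 0.025 for Ndufs3, and with GC offsets they were 0.038 for Ndufv1, 0.048 for Ndufs7 and 0.0044 for Ndufs3. Their adjusted p with edgeR ran from 0.209 for Ndufs7 to 0.689 for Ndufs8. Ndufs8 and Ndufv2 changed sign with GC offsets. Ndufv2 was at −0.117 without transgenic mouse 1 and at −0.0008 without transgenic mouse 3. Ndufa4, listed here by its symbol although the protein is now assigned to complex IV, was the most abundant gene of the group at 122 FPKM in the wild-type, and Ndufa4l2, its paralog, the least abundant at 1.18 FPKM.

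Complex II (succinate dehydrogenase), which also serves the citric acid cycle, showed no common direction, with 2 of its 4 genes higher and 2 lower and a median of 0.017. Sdha, the flavin subunit that oxidises succinate, had a log2 fold change of −0.038 (SE 0.040), and Sdhb, the iron-sulfur subunit, 0.055 (SE 0.054). The membrane anchors Sdhc and Sdhd had −0.021 (SE 0.050) and 0.084 (SE 0.041). None of the 4 was called. Sdhb was at 0.0018 without transgenic mouse 1 and at 0.010 with GC offsets, and Sdhd at 0.023 with gene length offsets. Sdha was at −0.0085 without transgenic mouse 3. Sdha and Sdhc changed sign with GC offsets, to 0.003 and 0.016.

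Complex III (cytochrome bc1) had 7 of 8 genes higher in point estimate, a median of 0.099 and 0 called. The highest values belonged to 2 of its smallest subunits. Uqcr10 had 64.2, 67.3 and 65.5 CPM in the wild-type and 77.6, 71.6 and 75.3 CPM in the transgenic mice, without overlap (log2 fold change 0.19, SE 0.048, adjusted p = 0.0557 with edgeR). Uqcr11 had 72.3, 79.8 and 80.5 CPM against 91.6, 88.0 and 88.5 CPM, also without overlap (log2 fold change 0.21, SE 0.054, adjusted p = 0.0601 with edgeR). With gene length offsets the values were 0.088 for Uqcr10 and 0.11 for Uqcr11, and with GC offsets that of Uqcr11 was 0.096. The large core proteins and the catalytic Rieske protein stood lower in the order. Uqcrc1 had 0.090, the Rieske iron-sulfur protein Uqcrfs1 0.022 and Uqcrc2 −0.084, the only negative value of the complex. Uqcrc1 was at 0.049 with GC offsets and 0.059 without transgenic mouse 1, and Uqcrc2 at −0.032 without wild-type mouse 1. Uqcrc2 was at 0.017 with GC offsets and Uqcrfs1 at −0.035 with gene length offsets.

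Complex IV (cytochrome c oxidase) held 2 of the 3 called genes. Its subunits around the catalytic core exist partly as pairs of a general form and a form restricted to certain tissues. All 11 genes other than the restricted forms were higher in point estimate, with a median of 0.117, against 48.3% of all genes tested. They include Cox7a2l and subunits without a restricted form among the members, such as Cox5a and Cox6c. Of the 11, 2 were called (18.2%, against 3.1% of all genes), and both calls were lost in most fits with 1 mouse left out. The 6 tested restricted forms had a median of −0.138, with 3 higher and 3 lower and 0 called.

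Cox4i1, the general form of the largest nuclear subunit, binds nucleotides that regulate the enzyme. The gene lies on GRCm38 chr8:120668222-120674207, on the plus strand. Its level was 293, 314 and 295 CPM in the wild-type and 358, 341 and 346 CPM in the transgenic mice. It was up-regulated 1.16-fold (log2 fold change 0.21, SE 0.048, adjusted p = 0.0444 with edgeR). The groups did not overlap. With any 1 mouse left out the call was lost, at log2 fold changes of 0.19 to 0.26 (adjusted p = 0.0581 to 0.180 with edgeR), and with GC offsets the value was 0.12. Cox4i1 was also placed among the up-regulated genes by the study on these same samples, as were Cox6a1, Ndufa8 and Uqcr10, so those lists are not independent evidence of direction.

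Cox7a2l encodes a protein related to the small subunit Cox7a that joins complexes III and IV in supercomplexes. The gene lies on chr17:83501918-83517330, on the minus strand. It had 72.6, 74.4 and 84.9 CPM in the wild-type and 91.7, 98.2 and 94.0 CPM in the transgenic mice. Cox7a2l was up-regulated 1.22-fold (log2 fold change 0.29, SE 0.067, adjusted p = 0.0450 with edgeR), the largest increase among the called members. It stayed past the threshold without wild-type mouse 3 (0.37, adjusted p = 0.0206 with edgeR) and lost the call without any of the other 5 mice (0.26 to 0.32, adjusted p = 0.0506 to 0.162). Of its 76-base windows 10.3% also occur in the pseudogene Gm6969, which makes its count less certain than that of Cox4i1 or Atp5e, whose windows are shared with no other annotated gene.

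Besides Cox4i1, the general forms Cox6a1, Cox8a, Cox6b1 and Cox7a2 lay above the wild-type range in all 3 transgenic mice, without passing the threshold. Cox6a1 had 162, 170 and 177 CPM in the wild-type and 202, 188 and 191 CPM in the transgenic mice (log2 fold change 0.19, SE 0.051, adjusted p = 0.0631 with edgeR). Cox8a, the member with the highest FPKM by the deposited gene length, had 237, 237 and 249 CPM against 269, 267 and 269 CPM (log2 fold change 0.16, SE 0.042, adjusted p = 0.0656 with edgeR). Cox6b1 and Cox7a2 had log2 fold changes of 0.14 and 0.12, again without overlap. With GC offsets the values were 0.050 for Cox6a1 and 0.057 for Cox8a, and with gene length offsets 0.10 and 0.049. For Cox6b1 and Cox7a2 they were 0.050 and 0.045 with gene length offsets.

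Cox8b, the form of subunit 8 known from heart, skeletal muscle and brown fat, had the largest difference of any member. It had 83, 111 and 35 counts in the wild-type and 33, 11 and 19 in the transgenic libraries, or 1.59, 2.63 and 0.925 CPM against 0.708, 0.288 and 0.507 CPM. All transgenic mice were below all wild-type mice, and the test did not pass (log2 fold change −1.75, SE 0.44, adjusted p = 0.0567 with edgeR). It passed without wild-type mouse 3 (−2.03, adjusted p = 0.0370 with edgeR) and was at −1.30 without wild-type mouse 2. The gene lies on chr7:140898945-140900446, on the minus strand. The order of the 6 mice by Cox8b was the same as by the summed choroid plexus markers, which had 5926, 6117 and 3955 CPM in the wild-type and 879, 564 and 725 CPM in the transgenic mice. The summed muscle and heart markers were at 27.0 to 39.1 CPM and 27.1 to 33.5 CPM in the groups, which overlapped. Whether the Cox8b reads came from choroid plexus was not tested.

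The other restricted forms were scarce. Cox6b2, known from testis, had a log2 fold change of −0.30 (SE 0.18), which was −0.14 without transgenic mouse 1 and −0.16 without wild-type mouse 2. Cox7a1, a heart and muscle form, had −0.33 (SE 0.17). Cox4i2, a form known from lung, had 0.085 (SE 0.21), Cox6a2, of heart and muscle, 0.023 (SE 0.30) and Cox7b2 0.31 (SE 0.27). Cox7b2 was at 0.17 without wild-type mouse 2 and at 0.57 with GC offsets, and Cox4i2 at 0.0039 with GC offsets. Cox7a1 had 1.07, 1.07 and 1.06 CPM in the wild-type and 0.772, 0.812 and 0.961 CPM in the transgenic mice, without overlap, and its adjusted p with edgeR was 0.258.

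**Figure D3:**
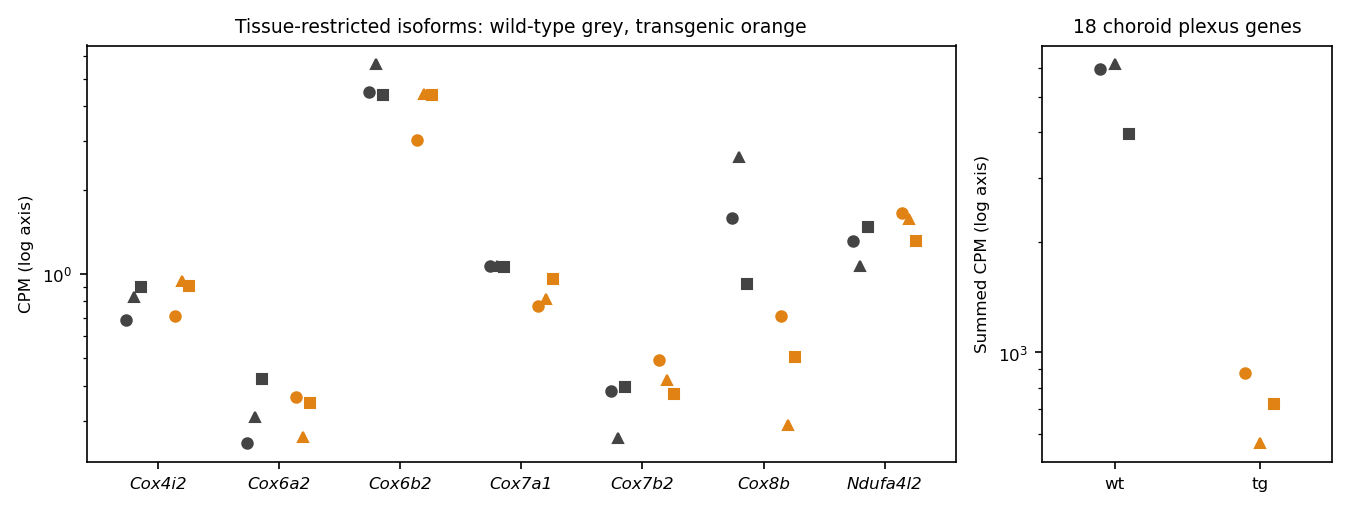
CPM of 6 tissue-restricted isoforms of complex IV and of Ndufa4l2 in each mouse (left), and the summed CPM of 18 choroid plexus marker genes (right), on log axes, with circle, triangle and square for mice 1, 2 and 3 of each group. For Cox8b the wild-type mice (grey) lie at 0.925 to 2.63 and the transgenic mice (orange) at 0.288 to 0.708, in the same order as the choroid plexus sum.

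The mix of isoforms was compared within pairs as the log2 ratio of FPKM (fragments per kilobase of exon, relative to the unscaled library total). The exact two-sided permutation test cannot give a p below 0.1 with 3 mice per group. The ratio of Cox8b to Cox8a was −6.67 ± 0.79 in the wild-type and −8.56 ± 0.65 in the transgenic mice (SD, n = 3 each, exact p = 0.1), so Cox8b made up 1.06% and 0.281% of the pair. Cox7a1 to Cox7a2 went from −5.80 ± 0.047 to −6.25 ± 0.21 (n = 3 each, exact p = 0.1) and Cox6b2 to Cox6b1 from −5.57 ± 0.17 to −6.01 ± 0.36 (n = 3 each, exact p = 0.1). Without transgenic mouse 1 the difference of the latter pair was −0.24, against −0.44 with all mice. These 3 pairs and Atp5g1 to Atp5g3 reached the smallest p that the test allows. Among 8 pairs none can pass a threshold of 0.05. The differences of Cox4i2 to Cox4i1 (−0.13, exact p = 0.6), Cox6a2 to Cox6a1 (−0.18, exact p = 0.5) and Ndufa4l2 to Ndufa4 (0.12, exact p = 0.7) were within the spread between mice.

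Complex V (ATP synthase) had 15 of 17 tested genes higher in point estimate and a median of 0.055, the smallest of the 3 larger complexes, and 1 gene was called. Its F1 part makes ATP, a rotor of c subunits turns in the membrane, and a peripheral stalk holds the parts together. Atp5e, the epsilon subunit at the foot of the central rotor stalk, had 53.1, 57.5 and 55.1 CPM in the wild-type and 68.5, 62.2 and 66.7 CPM in the transgenic mice. It was up-regulated 1.19-fold (log2 fold change 0.25, SE 0.055, adjusted p = 0.0402 with edgeR), and the groups did not overlap. With any 1 mouse left out the call was lost (0.22 to 0.32, adjusted p = 0.0591 to 0.166 with edgeR). The gene lies on chr2:174461072-174464105, on the minus strand.

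The catalytic subunits of F1 hardly differed. Atp5b, the beta subunit with the active sites, had 885, 897 and 832 CPM in the wild-type and 948, 866 and 871 CPM in the transgenic mice, with overlap (log2 fold change 0.038, SE 0.059). Atp5a1, the alpha subunit, had 0.018 (SE 0.050). The medians were 0.056 in the 5 genes of F1, 0.076 in the 4 tested genes of the peripheral stalk and 0.055 in the 7 genes of the membrane part. Atp5s, a coupling factor with 9.07 FPKM in the wild-type, was the least abundant tested gene of the complex and had −0.021 (SE 0.084).

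The c subunit, of which the rotor ring is built, is encoded by 3 genes that give the same mature protein and differ in their import sequences. Atp5g3 made up 69.0% ± 0.69 of their summed FPKM in the wild-type and 68.5% ± 0.058 in the transgenic mice, Atp5g1 17.3% ± 0.23 and 17.7% ± 0.31, and Atp5g2 13.7% ± 0.88 and 13.8% ± 0.35 (SD, n = 3 each). The ratio of Atp5g1 to Atp5g3 differed by 0.042 (log2, exact p = 0.1 with n = 3 each) and that of Atp5g2 to Atp5g3 by 0.017 (exact p = 0.9). Of the windows of Atp5g2 35.7% also occur in annotated pseudogenes. Counted per principal transcript, the wild-type shares were 80.8% for Atp5g3, 7.01% for Atp5g1 and 12.2% for Atp5g2, so that the order of the latter pair depends on the length used.

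Levels between genes were compared as FPKM in the wild-type mice, with the exonic length deposited for each gene. The highest were Cox8a at 443 ± 14.5, Cox6a1 at 242 ± 11.4 and Atp5a1 at 232 ± 6.07 (FPKM ± SD, n = 3). Cox6a1 and Atp5a1 lay within their spread of each other, as did Atp5b at 206 ± 7.66 and Cox6b1 at 206 ± 11. The most abundant genes of complexes II and III were Sdha at 81.8 FPKM and Uqcr11 at 121 FPKM. The least abundant were Sdhc at 26.4 FPKM and Uqcrq at 39.9 FPKM. In complex III Uqcr11 (SD 7.51) lay within the spread of Uqcr10 at 112 ± 2.88 FPKM. Likewise Uqcrq (SD 2.39) lay within that of Uqcrc1 at 41.1 ± 1.18 FPKM. The median over tested genes was 42.5 FPKM in complex I, 49.6 in complex II, 69.5 in complex III, 53.6 in complex IV and 46.6 in complex V. The lowest tested member was Cox6a2 at 0.481 FPKM.

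The deposited exonic length exceeded the principal transcript of the tested members 1.49-fold in the median and at least 2-fold in 25 of them. For Ndufs8 (963 against 1005 bp) and Cox8a (545 against 550 bp) it was the shorter one. Atp5l, a membrane subunit, had 11.3 FPKM by the deposited length and 134 FPKM by its principal transcript, the largest gap (11.8-fold). Ndufb7 went from 9.84 to 71.4 FPKM. By the principal transcript the medians were 70.1, 69.6, 110, 133 and 131 FPKM for complexes I to V, and Atp5b (455 FPKM) stood above Cox8a (439 FPKM). The rank of a gene within the chain thus depends on this choice. The fold changes do not use a length, except in the fit with gene length offsets, which took the deposited length.

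**Figure D4:**
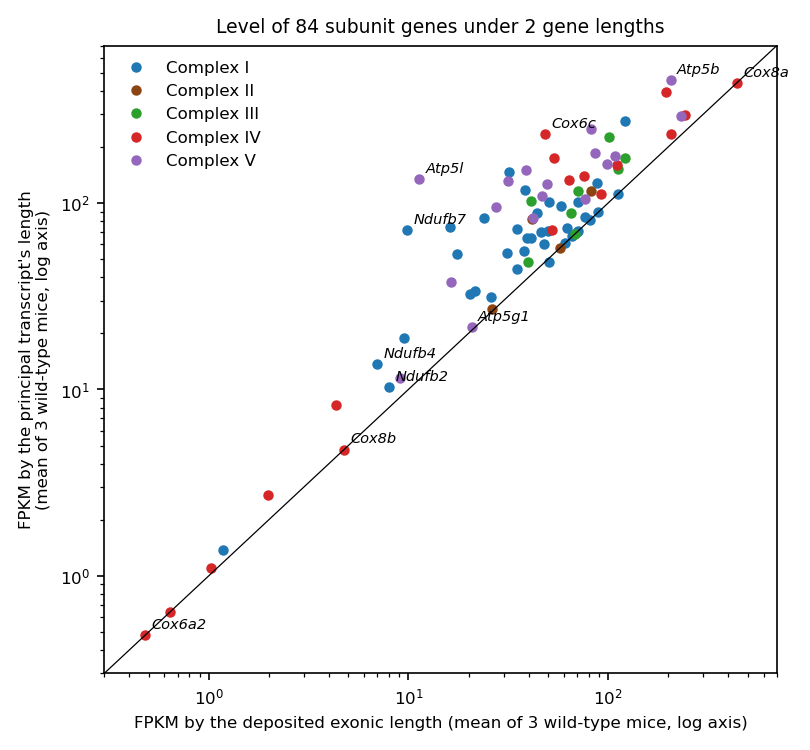
Mean FPKM of the 84 tested subunit genes in 3 wild-type mice by the deposited exonic length (horizontal) and by the length of the principal transcript (vertical), on log axes, with equal values on the line and colours for the complexes. Most genes lie on or above the line, and Atp5l (11.3 against 134) is farthest from it.

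Fold changes across all genes went with the GC content of the transcript and this held among the members too. Over 19079 genes Spearman's rho of log2 fold change and GC content was 0.383, and over the 84 members 0.342, as descriptions across genes that share 6 libraries. All genes tested were divided into 4 bins of equal size by GC content. From the lowest to the highest bin the median log2 fold change was −0.141, −0.043, 0.044 and 0.109 for all genes, and 0.074, 0.046, 0.137 and 0.133 for the 14, 23, 27 and 20 members in them. The members' median was above that of all genes in each bin, least in the highest. They were also shorter, with a median length of 1560 bp against 3732 bp, and rho with length was −0.166 over all genes and −0.191 over members. With GC offsets, which adjust each library for its trend with GC content, the members' median was 0.108 and that of all genes 0.018. Then 0 members were called, against 0.864% of all genes called higher and 1.29% lower. Some members of low GC content rose, as Ndufa4 from 0.12 to 0.29, and some of high GC content fell, as Cox6a1 from 0.19 to 0.050. Whether a trend remained among the members was not tested. In that fit Atp5e was at 0.27 (adjusted p = 0.0564) and Cox7a2l at 0.31 (adjusted p = 0.0567), no lower than without the offsets, and Cox4i1 at 0.12 (adjusted p = 0.196). With gene length offsets the members' median was 0.050 and that of all genes 0.007, and 0 members were called, against 2.07% and 1.97% of all genes.

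The number of called members depended on the fit more than their median did. DESeq2's Wald test called 9 higher and 2 lower, against 5.53% and 6.16% of all genes, and added Cox6a1, Cox8a, Ndufa2, Ndufa8, Uqcr10 and Uqcr11 as higher and Cox8b and Ndufs1 as lower. With limma-voom the same 3 genes as with edgeR were called higher, against 2.88% of all genes higher and 3.73% lower. A block for the replicate number left 0 members called, against 1.38% and 2.49% of all genes. The values of Atp5e, Cox4i1 and Cox7a2l with the block were 0.25, 0.21 and 0.29, the same at 2 decimals as without it, at adjusted p-values of 0.0711, 0.0757 and 0.0536 with edgeR. GC offsets with that block left Cox7a2l as the 1 call, against 0.875% and 1.67%.

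**Figure D5:**
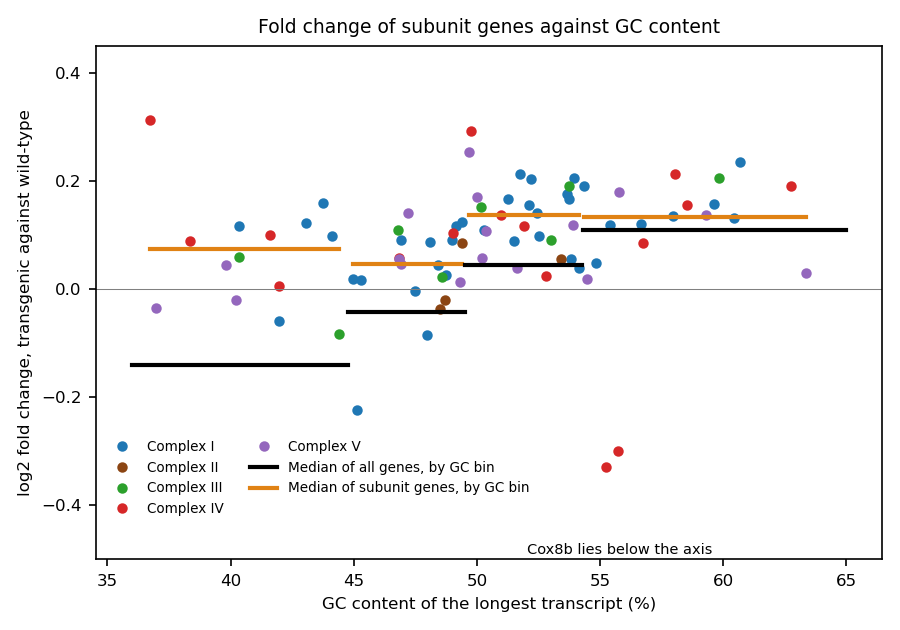
Log2 fold change of the subunit genes against the GC content of the longest transcript (%), coloured by complex, with the median of all genes (black) and of the subunit genes (orange) in each of 4 bins of GC content. The orange lines (0.074, 0.046, 0.137, 0.133) lie above the black ones (−0.141, −0.043, 0.044, 0.109), the outer black lines are cut to the range shown, and Cox8b is outside the axis.

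Genes around the respiratory chain did not show the common direction of the subunits. Of 42 tested assembly factors, which help the complexes to form and are not part of them, 23 were higher and 19 lower in point estimate (median 0.016). Among them 1 was called higher (2.38%, against 3.1% of all genes tested), which was Uqcc2, a factor for cytochrome b of complex III, at 38.6 and 47.6 CPM in the wild-type and transgenic mice (log2 fold change 0.30, SE 0.055, adjusted p = 0.0282 with edgeR). Of 13 citric acid cycle genes 5 were higher and 8 lower (median −0.010), and 0 were called, against 3.1% of all genes higher and 4% lower. Of 12 transcriptional regulators of respiratory genes 6 were higher and 6 lower (median 0.002). Ppargc1a, a coactivator that promotes the expression of respiratory genes in several tissues, was the 1 regulator called, where 4% of all genes were called lower. It was down-regulated from 57.0 ± 3.18 to 46.5 ± 1.35 CPM (SD, n = 3 each, log2 fold change −0.30, SE 0.055, adjusted p = 0.0291 with edgeR). Both calls were lost with the replicate block, with GC offsets (0.25 for Uqcc2 and −0.15 for Ppargc1a) and with gene length offsets (0.22 and −0.24). With 1 mouse left out Uqcc2 stayed past the threshold without transgenic mouse 1 or 2 and Ppargc1a without wild-type mouse 3 or transgenic mouse 1. These lists also differ from the members in properties that went with fold change. Median GC content was 50.2% in members, 48.4% in assembly factors, 47.7% in citric acid cycle genes and 45.5% in regulators. Median lengths were 1560, 2600, 4302 and 5186 bp in the same order. Whether the subunit list differs from these lists, and the part of GC content and length in this, was not tested.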

How the data were processed

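Hippocampal poly(A) RNA of 3 wild-type and 3 transgenic mice was sequenced in 6 libraries. The authors filtered reads with Trimmomatic, aligned them to mm10 with STAR and counted them with featureCounts 1.5.0-p1 (set to count read pairs, strand setting 2, mapping quality of at least 3, primary alignments) on Ensembl release 95. The run is described as paired-end with a read length of 1 × 76 bp, so whether a counted fragment is a pair or a single read is unknown. They deposited these whole-number counts per gene, which were not normalized, and exonic gene lengths. For low counts the counting itself limits precision. Symbols came from GENCODE M21, which held 54809 of the 54838 genes. 

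Genes were filtered with filterByExpr (minimum count 10), scaled by TMM and tested with edgeR 4.0.16 (quasi-likelihood) in R 4.3.3, with Benjamini-Hochberg adjustment over 19087 genes and a threshold of 0.05. CPM are relative to TMM-scaled totals and log2 positions used a prior of 0.5 CPM. The SE of a log2 fold change was derived from edgeR's F statistic, as its absolute value divided by the square root of F. FPKM were computed from counts, deposited lengths and unscaled totals. Windows of 76 bases shared with other annotated transcripts and promoter motifs were counted with Python 3.11.15. The mice are separate animals, and the p-values measure the spread between them. Scripts were tested on simulated data.

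DESeq2 1.42.0, limma-voom (limma 3.58.1), other scalings and filters, a replicate block, loess offsets (span 0.5) for GC content and length, and leaving out each mouse were tried, and levels by principal transcript length were added after seeing the data. The study's test, NOISeq, was not run. Replicate numbers gave no clear pairing of the mice. Over 11191 genes the correlations of same-numbered mice were 0.399, −0.357 and 0.388 (mean 0.143). Those of differently numbered mice ran from −0.588 to 0.536 (mean −0.0918). Members and lists were chosen with earlier results of these data known. Named were, per complex, the called genes or the smallest p, the highest and lowest level, isoform pairs, untested members, core or catalytic subunits and members of the study's gene lists. Of these, 1 gene of complex I is not reported individually and stays in the counts and medians. Genes named beyond this rule (Ndufb7, Atp5l, Uqcc2, Ppargc1a) were chosen after their values were seen.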

Additional observations from a re-analysis of the deposited data

How the results depend on the processing

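The direction of the members' median log2 fold change held in all fits, from 0.050 with gene length offsets to 0.111 in the fits that kept all mice, and from 0.059 to 0.145 with 1 mouse left out. The number called did not hold. Against 3 called higher and 0 lower, DESeq2's Wald test called 9 and 2, no filter on low counts called 1 lower (Cox8b), gene length offsets and GC offsets called 0 higher, GC offsets with the replicate block called 1 (Cox7a2l), and leaving out 1 mouse gave 0 to 1 higher and 0 to 1 lower. Calls over all genes fell as well, from 591 higher to 11, 13 and 396 without wild-type mouse 1, 2 or 3 and to 466, 62 and 19 without transgenic mouse 1, 2 or 3. With the replicate number as a block 0 were called higher, and the numbers gave no clear pairing of the mice. The other scalings, limma-voom and at least 10 counts in every library called 3 higher and 0 lower. With 1 mouse left out the calls lower were of Cox8b (without wild-type mouse 3) and Ndufs1 (without transgenic mouse 1), and the lone call higher was of Cox7a2l (without wild-type mouse 3). A fit without 1 mouse has fewer samples, and for the offsets and the block the cause was not tested.

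With 1 mouse left out, the difference in the share of counts ran from 0.00736 to 0.0193 percentage points for complex I, −9e-04 to 3e-04 for complex II, 0.00258 to 0.00538 for complex III, 0.0136 to 0.0184 for complex IV, 0.00382 to 0.0155 for complex V and 0.0267 to 0.0585 for all members. The difference in log2 ratio ran from −0.23 to 0.018 for Cox4i2/Cox4i1, −0.33 to −0.0054 for Cox6a2/Cox6a1, −0.035 to 0.24 for Ndufa4l2/Ndufa4, −0.043 to 0.062 for Atp5g2/Atp5g3, 0.034 to 0.056 for Atp5g1/Atp5g3, −0.56 to −0.24 for Cox6b2/Cox6b1, −0.57 to −0.35 for Cox7a1/Cox7a2 and −2.30 to −1.51 for Cox8b/Cox8a. 

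Leaving out 1 mouse moved the log2 fold change across 0 for some genes whose groups overlap, with ranges of −0.00064 to 0.062 for Atp5a1, −0.0054 to 0.086 for Atp5b, −0.017 to 0.112 for Atp5g2, −0.033 to 0.080 for Atp5g3, −0.061 to 0.044 for Atp5s, −0.0089 to 0.211 for Cox4i2, −0.140 to 0.243 for Cox6a2, −0.0090 to 0.116 for Ndufs8, −0.049 to 0.027 for Sdhc and −0.013 to 0.073 for Uqcrfs1. Further sign changes of single genes came with the offsets. With GC offsets, without and with the replicate block, the log2 fold change was −0.040 and −0.040 for Atp5a1, −0.119 and −0.116 for Atp5g2, 0.149 and 0.150 for Atp5s, −0.013 and −0.0083 for Cox6a2, −0.015 and −0.015 for Ndufs8, 0.085 and 0.080 for Ndufv2, 0.0034 and 0.0033 for Sdha, 0.016 and 0.016 for Sdhc, and 0.017 and 0.017 for Uqcrc2. With gene length offsets it was −0.022 for Atp5g2, −0.027 for Atp5g3, −0.066 for Cox6a2, −0.024 for Ndufs8 and −0.035 for Uqcrfs1. None of the genes listed as changing sign was called in any fit.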

Other observations

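Of 4 components of the chain that the symbol rule left out, 3 were higher and 1 was lower in point estimate. Cyc1, the cytochrome c1 of complex III, was at 114 ± 3.92 CPM in the wild-type and 122 ± 4.48 CPM in the transgenic mice (SD, n = 3 each, log2 fold change 0.088, SE 0.048). Usmg5, a small membrane subunit of ATP synthase, and Ndufb1-ps, annotated as a pseudogene of a distal subunit of complex I, had log2 fold changes of 0.10 (SE 0.056) and 0.11 (SE 0.050). Cycs, the mobile carrier cytochrome c, was at 111 ± 4.47 CPM in the wild-type and 101 ± 3.06 CPM in the transgenic mice (log2 fold change −0.13, SE 0.048), with all transgenic mice below the wild-type range. For Cyc1 and Ndufb1-ps all transgenic mice lay above the wild-type range, and for Usmg5 the groups overlapped. None of the 4 was called with edgeR, and the adjusted p ran from 0.131 to 0.277.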
